A study of Mus musculus with 6 samples.

Results

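Aquaporins are channel proteins of cell membranes. The members examined here were 7 of the 12 aquaporin genes in a counted mouse gene table of 55385 genes: Aqp1, Aqp3, Aqp4, Aqp7, Aqp8, Aqp9 and Aqp11. They were chosen from the list of mouse aquaporins with counts of the same sham and VSG livers already known, so the differences between groups given for them are a description and not independent evidence. The other 5 family genes were all but silent. Mip, Aqp2, Aqp6 and Aqp12 were not counted at all, a zero that a true level of up to 3 counts a library could give, and Aqp5 had 1, 0 and 6 counts in the sham libraries and 0 in all 3 VSG libraries. Of the members, Aqp8 stood in VSG livers at 18.8% of its sham mean, Aqp4 at 18.6% and Aqp7 at 1.72%. Aqp9, the most abundant, stood at 73.3%, Aqp1 at 80.5% and Aqp11 at 69.9%, each with overlap between the groups, and Aqp3 was too low to compare.

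Poly(A) RNA of whole liver was sequenced from 6 wild-type male C57BL/6 mice, 3 after a sham operation (replicates 1, 2 and 3) and 3 after vertical sleeve gastrectomy, VSG, in which most of the stomach is cut away (replicates 4, 5 and 6). All mice were 6 to 8 weeks old at the start and ate a high-fat diet for 10 weeks before the operation and 12 weeks after it. Each library came from 1 animal, and no lean or unoperated mice are among the 6. The libraries held between 22804397 and 24191778 counts. Mitochondrial genes made up 5.59% to 6.58% of the counts in sham and 4.14% to 5.01% in VSG, with VSG replicate 4 the lowest and no overlap between the groups. The part of this in the aquaporin differences was not tested. Hepatocyte transcripts were abundant in every library. Levels are given as CPM, the counts scaled to library size with TMM factors. The summed level of 7 hepatocyte markers, albumin among them, ran from 65160 to 108800 CPM in sham and from 48270 to 79740 CPM in VSG. None of the 7 passed the edgeR test at an adjusted p under 0.05, 2 had an unadjusted p under 0.05 (33.9% of all genes tested did), and DESeq2 called 2 (22.7% of all genes). VSG replicate 4 stood apart, with the lowest hepatocyte sum and the highest sum of 8 neutrophil markers (1752 CPM, where VSG replicate 5 had 127, VSG replicate 6 had 789 and the sham libraries 2.38 to 13.96 CPM). The values of the aquaporins without that library are given with the comparison.

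Each aquaporin subunit is a bundle of membrane-spanning helices around its own pore, and subunits assemble as tetramers. The orthodox members pass water. Aquaglyceroporins (Aqp3, Aqp7 and Aqp9) pass glycerol and other small solutes as well. Aqp11 belongs to a more distant branch that lies in membranes inside the cell. In liver, Aqp9 is the main glycerol channel of the hepatocyte surface, through which glycerol from adipose tissue enters for gluconeogenesis and triglyceride synthesis. Aqp8 of hepatocytes lies in the canalicular membrane, in vesicles beneath it and in mitochondria, passes water into bile, and lets hydrogen peroxide through. Aqp1 is known from the endothelium, the bile duct epithelium and the red cell.

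The pore is lined by a pair of short loops that each carry the box asparagine-proline-alanine (NPA). The coding stretches around both boxes are shown for the 3 most abundant members, Aqp9, Aqp8 and Aqp1, and for Aqp7 and Aqp11, whose boxes differ from NPA (GENCODE M21 transcripts, GRCm38, written 5′ to 3′ along the gene). Capitals mark the 3 codons of each box.
Aqp9 first box: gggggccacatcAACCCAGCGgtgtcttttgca
Aqp9 second box: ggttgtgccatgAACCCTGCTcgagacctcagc
Aqp8 first box: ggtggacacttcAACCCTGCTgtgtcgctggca
Aqp8 second box: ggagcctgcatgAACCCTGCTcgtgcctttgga
Aqp1 first box: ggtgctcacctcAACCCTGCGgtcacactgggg
Aqp1 second box: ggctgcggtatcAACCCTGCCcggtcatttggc
Aqp7 first box: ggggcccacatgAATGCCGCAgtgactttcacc
Aqp7 second box: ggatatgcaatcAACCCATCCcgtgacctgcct
Aqp11 first box: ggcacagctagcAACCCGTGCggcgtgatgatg
Aqp11 second box: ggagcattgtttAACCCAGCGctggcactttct

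Aqp1, Aqp8 and Aqp9 encode NPA in both boxes, from codons 76 and 192, 92 and 210, and 110 and 242. The same held for Aqp3 (codons 83 and 215) and Aqp4 (codons 97 and 213). Aqp7 departs at both places, with asparagine-alanine-alanine from codon 79 (chr4:41035611-41035619, minus strand, exon 5 of 8) and asparagine-proline-serine from codon 211 (chr4:41034813-41034821, exon 7). Aqp11 departs at the first, where the alanine is replaced by cysteine (codon 99, chr7:97737685-97737693, minus strand, exon 1 of 3), and keeps NPA at the second (chr7:97729053-97729061, exon 2). The boxes of Aqp8 lie at chr7:123464202-123464210 (exon 3 of 6) and chr7:123466611-123466619 (exon 5) on the plus strand, and those of Aqp9 at chr9:71132741-71132749 (exon 3 of 6) and chr9:71122850-71122858 (exon 5) on the minus strand. Those of Aqp1 lie at chr6:55336716-55336724 (exon 1 of 4) and chr6:55345837-55345845 (exon 3) on the plus strand.

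The coding sequences were between 261 codons (Aqp8) and 323 codons (Aqp4) long and 58.9% to 63.5% identical over their aligned bases in the 21 pairs of members. No member is a near copy of another. No exon of a member shares bases with an exon of another annotated gene, although the spans of Aqp4 and Aqp9 overlap genes on the opposite strand.

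Levels of different genes were compared as FPKM, which is the TMM-scaled CPM divided by the summed exon length in kilobases. In sham livers Aqp9 was the most abundant aquaporin transcript, and Aqp8 came next. Aqp9 (ENSMUSG00000032204.13, chr9:71110659-71168682, minus strand) was at 147 ± 29.7 FPKM (SD, n = 3), Aqp8 (ENSMUSG00000030762.11, chr7:123462291-123468004, plus strand) at 56.3 ± 4.69 and Aqp1 (ENSMUSG00000004655.5, chr6:55336432-55348555, plus strand) at 31.2 ± 3.91. Aqp11 (ENSMUSG00000042797.9, chr7:97724006-97738289, minus strand) followed at 4.31 ± 0.3004 FPKM, Aqp4 (ENSMUSG00000024411.11) at 3.06 ± 0.996 and Aqp7 (ENSMUSG00000028427.13, chr4:41033074-41048139, minus strand) at 1.20 ± 0.652. Aqp3 (ENSMUSG00000028435.8, chr4:41092722-41098183, minus strand), a neighbour of Aqp7 on the chromosome and the glycerol channel of skin and gut, had 1 count in each sham library. In the sham order only the ranges of Aqp4 and Aqp7 touched, the lowest Aqp4 library being at 1.92 FPKM and the highest Aqp7 library at the same value after rounding.

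In VSG livers Aqp8 dropped below Aqp1 in that order. Aqp9 was at 107.8 ± 31.99 FPKM, Aqp1 at 25.1 ± 7.74 and Aqp8 at 10.6 ± 0.415 (SD, n = 3). Aqp11 was at 3.01 ± 1.26 FPKM and Aqp4 at 0.569 ± 0.304, while Aqp7 was at 0.0207 ± 0.0229. Neighbours in the VSG order did not overlap except for Aqp7 and Aqp3, which were both at the floor of detection. A length choice moved the values but not the order. When the length of the longest coding transcript was used in place of all exons, Aqp9 was at 230.2 FPKM in sham and 168.8 in VSG, and Aqp11, whose annotation holds a single exon block of 5798 bases, was at 10.9 and 7.59 FPKM.

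**Figure D1:**
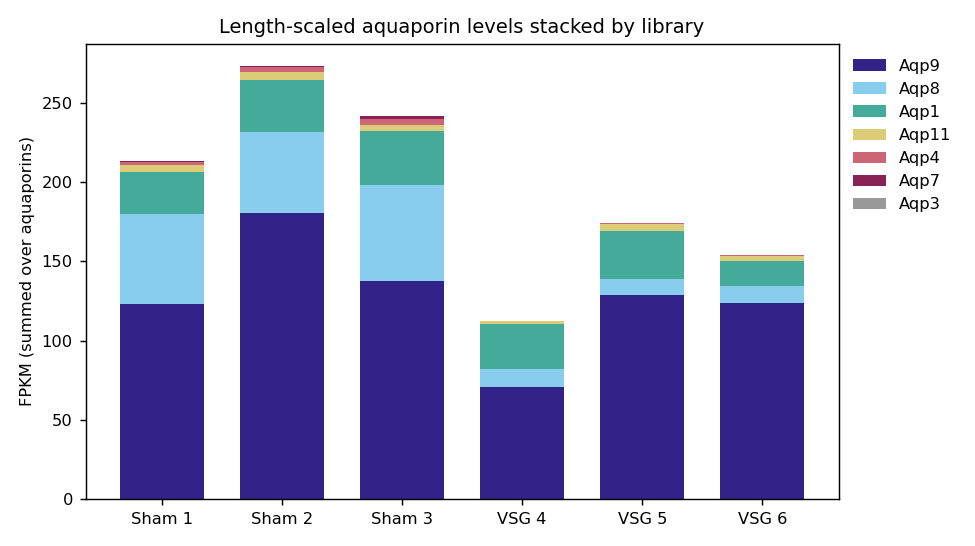
Stacked FPKM of the 7 aquaporins (vertical axis) in each of the 6 liver libraries (horizontal axis), 1 colour per gene. The whole stack runs from 213.6 to 273.7 FPKM in sham and from 112.4 to 174.4 FPKM in VSG, and the Aqp8 band is thinner in all 3 VSG libraries.

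The make-up of the aquaporin pool is drawn in the stacked plot of FPKM by library. The 7 members together were at 243.1 ± 30.03 FPKM in sham and 147.1 ± 31.6 FPKM in VSG. Aqp9 made up 57.7%, 65.9% and 56.9% of that sum in sham replicates 1, 2 and 3, and 63.1%, 73.7% and 80.2% in VSG replicates 4, 5 and 6. Aqp8 made up 26.4%, 18.8% and 25.1% in sham and 9.78%, 5.83% and 6.80% in VSG, with no overlap between the groups. The share of Aqp1 was 12.9% ± 0.997 in sham and 17.8% ± 7.44 in VSG, and its VSG libraries lay on both sides of the sham range.

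Aqp8 had the most even difference between the groups. Its counts were 2417, 1782 and 2533 in sham replicates 1, 2 and 3 and 384, 376 and 348 in VSG replicates 4, 5 and 6. Scaled, these were 89.3, 81.4 and 96.2 CPM in sham and 17.4, 16.1 and 16.6 CPM in VSG. Every VSG library was far below every sham library, and the 3 VSG livers lay close together. The means were 88.97 ± 7.42 and 16.7 ± 0.656 CPM, a ratio of 5.33 between sham and VSG, and the log2 fold change (VSG minus sham) was -2.41 (SE 0.101).

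Because the counts of a pair of genes within 1 library share its depth and scaling, ratios of counts were taken too. The ratio of Aqp8 to Aqp9 counts was 0.175, 0.109 and 0.169 in sham and 0.0591, 0.0302 and 0.0324 in VSG. The ratio of Aqp8 to Aqp1 counts was 1.27, 0.936 and 1.08 in sham and 0.232, 0.200 and 0.388 in VSG. In both ratios the groups were apart. They use the Aqp8 counts on which the members were chosen and are given as a description.

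Aqp4, the orthodox water channel best known from brain astrocytes and from muscle, was the other water channel with a wide difference. Its counts were 324, 480 and 615 in sham replicates 1 to 3 and 32, 120 and 85 in VSG replicates 4 to 6, or 11.97, 21.9 and 23.4 CPM against 1.45, 5.13 and 4.06 CPM. The groups did not overlap, but the libraries within each spread more widely than those of Aqp8, sham replicate 1 being the lowest of its group and VSG replicate 4 the lowest of all. The means were 19.1 ± 6.21 and 3.54 ± 1.89 CPM, with a log2 fold change of -2.42 (SE 0.468). The ratio of Aqp4 to Aqp8 counts was 0.215 ± 0.0717 in sham and 0.216 ± 0.121 in VSG.

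Aqp1 overlapped between the groups. It was at 70.2, 86.9 and 88.98 CPM in sham and at 75.02, 80.3 and 42.7 CPM in VSG. VSG replicates 4 and 5 lay within the sham range, and VSG replicate 6 was lower than all others. The log2 fold change was -0.31 (SE 0.241). Markers of the cell types that carry Aqp1 are given beside it. The summed level of 8 endothelial markers ran from 354.0 to 425.0 CPM in sham and from 356.5 to 445.9 CPM in VSG. None of the 8 passed the edgeR test, 1 had an unadjusted p under 0.05 and DESeq2 called none. The summed level of 8 erythroid markers ran from 133.4 to 197.4 CPM in sham and from 184.8 to 288.6 CPM in VSG. Of the 7 tested none passed, 1 had an unadjusted p under 0.05 and DESeq2 called 1. Over all genes tested, 14.7% passed with edgeR, 33.9% had an unadjusted p under 0.05 and DESeq2 called 22.7%. Of 5 bile duct markers tested, 1 passed as higher in VSG, where 6.79% of all genes tested did, and the median log2 fold change was -0.76. It was Sox9, a transcription factor of duct and progenitor cells (log2 fold change 1.77, SE 0.414, edgeR adjusted p 0.0359), which did not pass with limma-voom (adjusted p 0.0540) or with limma on log2(FPKM + 1) (0.0506). The other 4 had negative values and did not pass, with log2 fold changes of -1.20 for the adhesion molecule Epcam, -0.84 and -0.76 for the keratin genes Krt7 and Krt19, and -0.45 for osteopontin, Spp1.

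Among the aquaglyceroporins, Aqp9 carried the bulk of the signal. It was at 510.3, 746.9 and 570.2 CPM in sham replicates 1, 2 and 3 and at 293.9, 532.8 and 512.9 CPM in VSG replicates 4, 5 and 6. The ranges of the groups overlapped, with sham replicate 1 below VSG replicates 5 and 6, and VSG replicate 4 was the lowest. The means were 609.1 ± 123.0 and 446.5 ± 132.6 CPM, with a log2 fold change of -0.45 (SE 0.270). The difference did not pass the test over all genes.

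Aqp7, the glycerol exit channel of fat cells, was a low transcript in sham liver and was almost not counted in VSG liver. It had 80, 40 and 143 counts in sham replicates 1, 2 and 3 and 0, 3 and 1 counts in VSG replicates 4, 5 and 6. Sham libraries were at 2.95, 1.83 and 5.43 CPM and VSG libraries at 0, 0.128 and 0.0477 CPM, every VSG library being at or under the floor of 3 counts. The 263 sham and 4 VSG counts gave a ratio of 58.1 after scaling, with an exact 95% interval from 22.4 to 214.6 that covers counting error only. The fitted log2 fold change of -5.71 (SE 0.762) depends on the prior count at such low values. Aqp7 passed the filter on low counts through its sham libraries.

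Transcripts of fat cells were examined beside Aqp7. Of 5 adipocyte markers none had enough counts for the test on all 6 libraries: leptin had no count, adiponectin (Adipoq) 1 count in sham replicate 3, Plin1 2 counts in the same library, and Retn 1 count in sham replicate 2. Cfd, the adipocyte serine protease adipsin, was at 0.0739, 3.02 and 1.60 CPM in sham and at 0, 0.171 and 0.191 CPM in VSG. The summed level of the list was 0.0739 to 3.06 CPM in sham and 0 to 0.191 CPM in VSG. When sham replicate 1, with 2 counts of Cfd, was left out, the gene passed the filter on low counts through the other sham libraries (66 and 42 counts, against 0, 4 and 4 in VSG) and was called as lower in VSG (log2 fold change -4.20, edgeR adjusted p 0.0387). It did not pass in the other 4 fits that tested it, with adjusted p-values from 0.0597 to 0.210. Sham replicate 3 was the highest library for Aqp7 and sham replicate 2 the highest for Cfd. The part of fat cells in the difference of Aqp7 was not tested beyond these values.

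Aqp3, the other aquaglyceroporin, had 1 count in each sham library and 0, 1 and 0 counts in VSG, below the floor everywhere, and no difference was detectable at this depth.

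Aqp11 was at 40.4, 43.5 and 37.8 CPM in sham replicates 1, 2 and 3 and at 16.1, 39.7 and 29.4 CPM in VSG replicates 4, 5 and 6. VSG replicate 5 lay within the sham range and VSG replicate 4 was the lowest. The log2 fold change was -0.52 (SE 0.297). The ratio of Aqp11 to Aqp9 counts was 0.0680 ± 0.0106 in sham and 0.0621 ± 0.0108 in VSG.

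**Figure D2:**
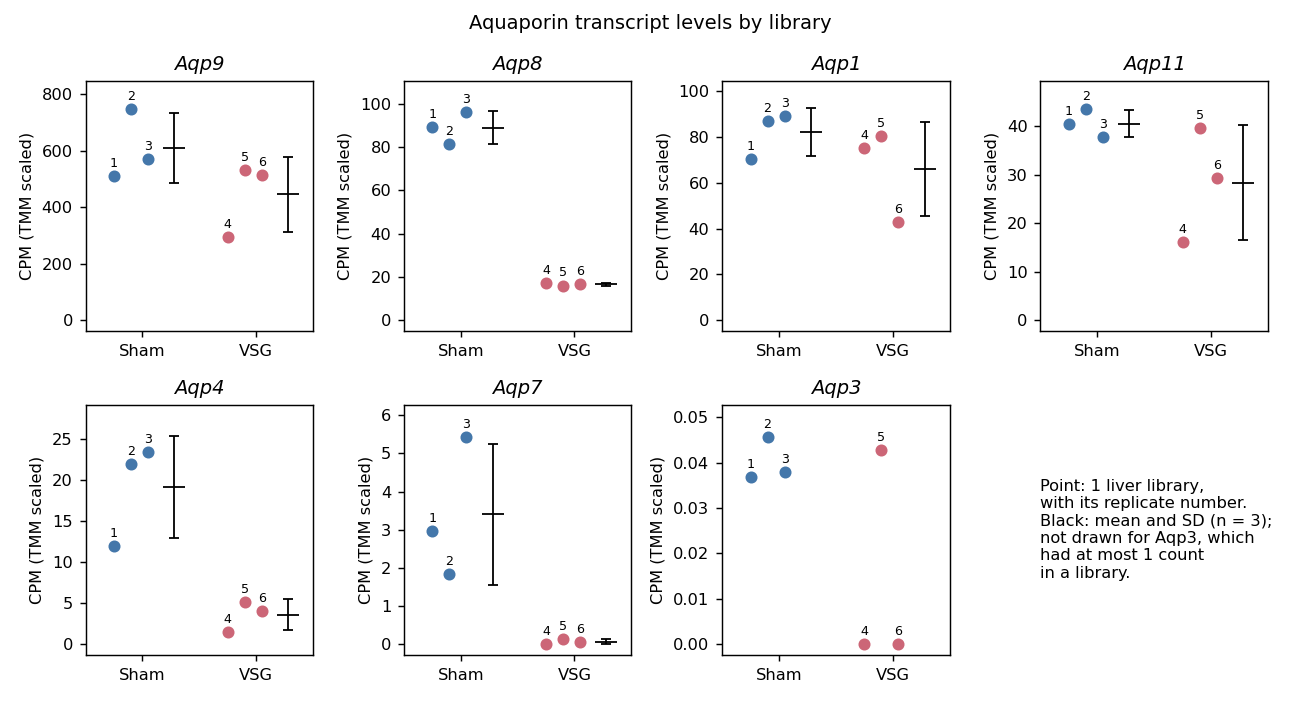
Level of each aquaporin in CPM (vertical axis, linear, with its own range in each panel) in 3 sham (blue) and 3 VSG (red) liver libraries, numbered by replicate, with the mean and SD of each group in black except for Aqp3. The groups are apart for Aqp8 (81.4 to 96.2 against 16.1 to 17.4 CPM), Aqp4 and Aqp7 and overlap for Aqp9, Aqp1 and Aqp11.

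Across the family, 6 of the 7 members had enough counts for the fit over all 14454 genes (edgeR, quasi-likelihood test, adjusted p under 0.05), and all 6 had a negative log2 fold change. Aqp4, Aqp7 and Aqp8 passed the threshold as lower in VSG, none passed as higher, and Aqp1, Aqp9 and Aqp11 did not pass. Over all genes tested, 14.7% passed in either direction, 7.87% as lower and 6.79% as higher. The same 3 members were those whose groups did not overlap with VSG lower, as was so for 19.8% of all genes tested. The median log2 fold change was -1.47 over the 6 members and 0.03 over all genes tested. Since the members were chosen on this contrast, nothing is read from these counts.

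Leaving out single libraries moved some of these calls. Aqp8 kept its log2 fold change between -2.48 and -2.36 and its call without any 1 of the 6 libraries. Aqp4 lost its call without sham replicate 2 (log2 fold change -2.32), without sham replicate 3 (-2.26) and without VSG replicate 6 (-2.53). Over all genes, 797 of 14913, 159 of 14839 and 210 of 14781 were called in these fits. With all 6 libraries 2118 of 14454 were called. Aqp7 lost its call without VSG replicate 6 (-5.59). Without VSG replicate 4, the library with the most neutrophil transcripts, the log2 fold changes were -2.44 for Aqp8, -2.05 for Aqp4 and -5.17 for Aqp7, all 3 still past the threshold. Those of Aqp9 and Aqp11 shrank to -0.22 and -0.23, and that of Aqp1 was -0.41.

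**Figure D3:**
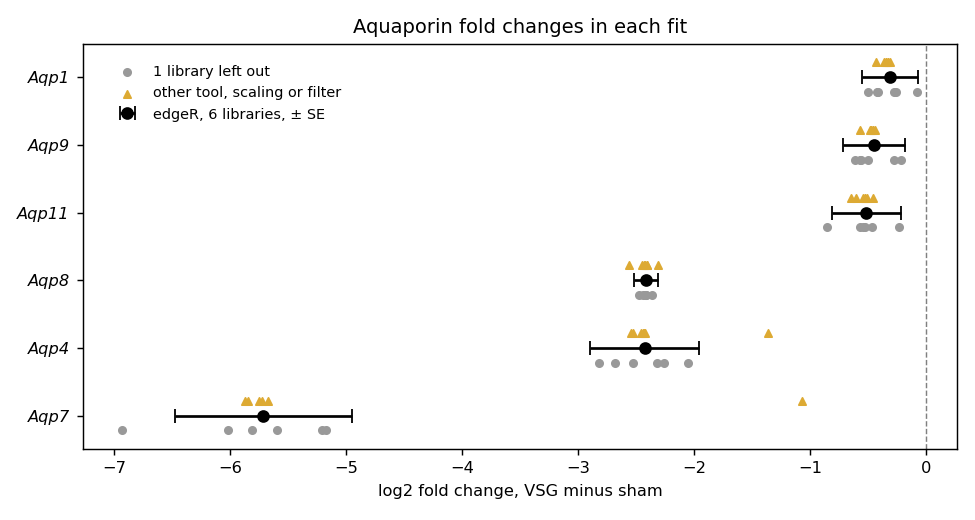
log2 fold change (VSG minus sham, horizontal axis) of the 6 aquaporins with enough counts, as fitted by edgeR on all 6 libraries (black, with SE), without 1 library (grey points) and with another tool, scaling or filter (yellow triangles). Aqp8 stays between -2.56 and -2.31 in every fit, and the yellow triangles of Aqp4 and Aqp7 nearest to 0 (-1.36 and -1.07) are on the log2(FPKM + 1) scale.

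In whole liver, fewer cells of a type and less RNA per cell cannot be told apart. The summed neutrophil markers were higher in every VSG library than in every sham library. Of the 8 markers, 2, the calprotectin genes S100a8 and S100a9, had at least 10 counts in every library, with log2 fold changes of 6.85 and 6.60 (edgeR adjusted p 0.0166 for each), while the others passed the filter on low counts through their VSG libraries. Both lost their calls in 3 of the 6 fits that left out 1 library (adjusted p of up to 0.0907), with log2 fold changes of at least 5.58 in each of the 6. Of 6 macrophage markers 3 passed as higher in VSG, where 6.79% of all genes tested did, among them Timd4 and Clec4f of resident Kupffer cells (log2 fold changes 3.03 and 1.23, edgeR adjusted p 0.0216 and 0.0260). The summed macrophage markers ran from 205.0 to 391.9 CPM in sham and from 404.5 to 845.2 CPM in VSG. When VSG replicate 4 was absent, 1 macrophage marker was called as higher, where 495 of 14707 genes were. None was called in the fits that lacked sham replicate 2, sham replicate 3 and VSG replicate 6 in turn, where 303 of 14913, 48 of 14839 and 90 of 14781 genes passed as higher. All 6 stellate cell markers had negative log2 fold changes (median -0.90), and 1, Reln, passed as lower (-1.27, SE 0.283, adjusted p 0.0328), where 7.87% of all genes tested did. In 4 of the 6 stellate markers the groups did not overlap with VSG lower (19.8% of all genes tested). An unadjusted p under 0.05 with a lower level in VSG was found for 5 of them (17.0% of all genes), and DESeq2 called 4 as lower (12.3% of all genes). The part of such cells in the aquaporin differences was not tested.

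The promoters of all members with a promoter entry were read for motifs, whether or not the member passed the test. RefSeq promoter windows, from 250 bases before to 50 bases after a start site (GRCm38.p6), matched 6 of the 7 members in 8 windows. Aqp4 had no entry. The 250 bases before the start site are shown for Aqp8 (chr7:123462044-123462293, plus strand) and for the upstream of 2 overlapping windows of Aqp7 (chr4:41048137-41048386, minus strand), since both fell in VSG. Capitals mark a motif match.
Aqp8 promoter: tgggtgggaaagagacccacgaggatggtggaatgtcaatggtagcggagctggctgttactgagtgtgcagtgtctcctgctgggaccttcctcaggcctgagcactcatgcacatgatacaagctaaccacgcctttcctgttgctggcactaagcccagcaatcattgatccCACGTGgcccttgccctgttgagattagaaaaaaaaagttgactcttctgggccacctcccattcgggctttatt
Aqp7 promoter: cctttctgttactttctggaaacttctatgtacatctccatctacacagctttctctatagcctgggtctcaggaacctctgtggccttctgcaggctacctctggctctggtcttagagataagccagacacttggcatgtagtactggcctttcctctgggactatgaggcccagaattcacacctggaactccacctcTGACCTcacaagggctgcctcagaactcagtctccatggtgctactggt

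The capitals in Aqp8 are the E-box CACGTG, bound by basic helix-loop-helix factors such as USF and the clock proteins, 75 bases before the start site. Those in Aqp7 are AGGTCA, the hexamer bound by nuclear receptors, read on the opposite strand (TGACCT), with the first printed letter 49 bases before the start site. The other Aqp7 window held that same match and a further one at 101 bases. Aqp11 had an AGGTCA 230 bases before its start site, and Aqp3 a TATAAA box at 29 bases. Aqp1 and Aqp9 held none of these 6 motifs, searched on both strands (the TATA box TATAAA, the STAT5 site TTCNNNGAA, the FOXA site TGTTTAC, the nuclear receptor hexamer AGGTCA, the HNF4A site TGACCTTTG, whose first letters are the reverse complement of that hexamer, and the E-box CACGTG). Of 32851 mouse promoter windows, 7.15% held CACGTG, 16.3% AGGTCA and 13.6% TATAAA. The other motifs were in 8.30% (TTCNNNGAA), 3.65% (TGTTTAC) and 0.478% (TGACCTTTG). Aqp8 and Aqp7 had no motif of this list in common. A match is a description of the letters and not a binding site.

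Of 13 genes of regulators that act on such motifs or in hepatocytes, 1 passed as higher and 2 as lower, where 6.79% and 7.87% of all genes tested did. Foxa3 was higher in VSG (log2 fold change 0.67, SE 0.129, edgeR adjusted p 0.0230), Pparg was lower (-1.23, SE 0.134, adjusted p 0.00692), and so was the coactivator Ppargc1a (-0.79, SE 0.186, adjusted p 0.0371). Pparg, the fat-cell nuclear receptor for which Aqp7 is a known target, was at 30.8, 28.1 and 28.3 CPM in sham and at 13.8, 13.2 and 10.3 CPM in VSG, with no overlap. The median of the 13 was -0.31. Among those that did not pass were Ppara, Hnf4a, Foxa1, Foxa2, Foxo1, Nr1h4, Stat5b, Bcl6 and Cux2.

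For each member tested, which leaves out Aqp3, the genes with the most similar course over the 6 libraries were found. They came from 11956 named genes with a mean of at least 1 CPM. The measure was the root mean square difference of log2 CPM after each gene was centred on its own mean. A small value means that the centred levels of the gene and the member lay close together in the 6 libraries. For a member with a wide gap between the groups, a gene with a like gap can be near without sharing its order within a group. Aqp8 was nearest to Tlr12, a Toll-like receptor (0.126 log2 units, 35.2 ± 1.65 CPM in sham and 7.22 ± 1.03 in VSG), and to Spc24, a kinetochore subunit (0.188). Among the VSG libraries, replicate 5 was the lowest for Aqp8 (-1.256 after centring) and the highest for Spc24 (-0.935). Aqp4 was nearest to Usp2, a deubiquitinase (0.167, 72.6 ± 25.8 CPM in sham and 14.4 ± 8.60 in VSG), and to Tpm2, a tropomyosin (0.230).

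The nearest genes of Aqp7 were less close, Olig1 at 0.538 and the hepcidin paralogue Hamp2 at 0.569 log2 units. The level of Olig1 was 7.25 ± 1.01 CPM in sham livers and 0.343 ± 0.111 CPM after VSG. Aqp9 was nearest to Mpzl2 (0.0510) and Tmtc2 (0.0620), Aqp11 to the lipase Lipc and the amide hydrolase Faah (0.0890 each), and Aqp1 to Selenom (0.0480) and Lonrf3 (0.0710). These genes were picked for their likeness over the same libraries, so a low library shared with the member follows from the choice. Mpzl2 was at 36.7 CPM in VSG replicate 4 and at 61.5 and 59.2 CPM in VSG replicates 5 and 6. Lipc was at 39.7 CPM against 96.1 and 65.6 CPM.

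**Figure D4:**
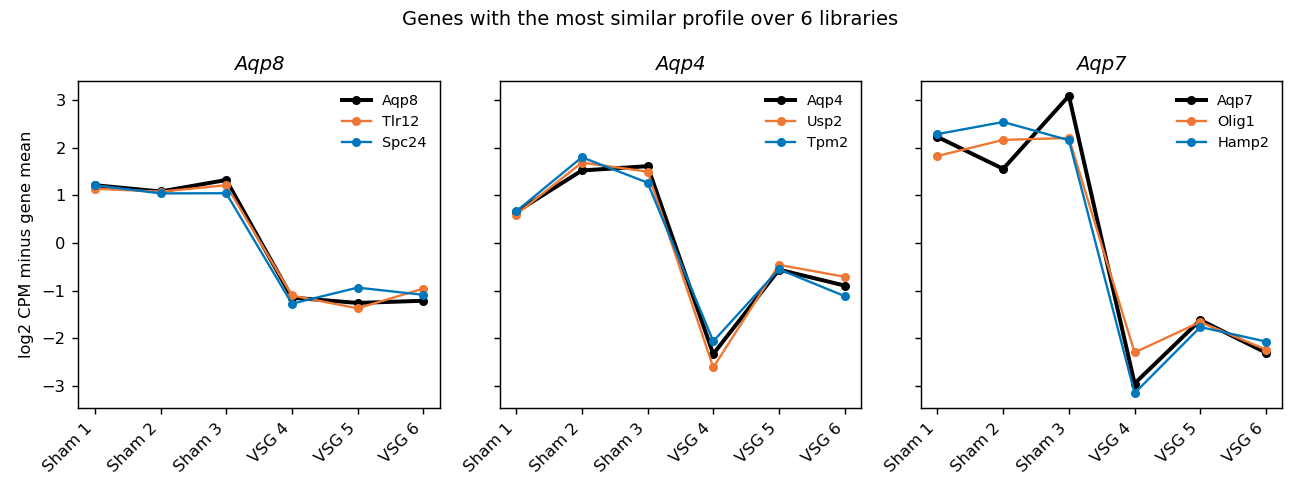
log2 CPM minus the gene's own mean (vertical axis) over the 6 libraries (horizontal axis, lines only join the points of a gene) for Aqp8, Aqp4 and Aqp7 in black and for the 2 genes nearest to each in colour. Usp2 and Tpm2 share the low point of Aqp4 in VSG replicate 4, while Tlr12 and Spc24 are nearly level within each group like Aqp8. The coloured genes were picked for likeness over these libraries, so shared points follow from the choice.

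Glycerol that enters through Aqp9 is phosphorylated and oxidised or esterified in the hepatocyte, and a list of 10 genes of glycerol use and release was set beside the channels. All 10 were tested. Of these, 5 were lower in VSG, none was higher and 5 did not pass, with a median log2 fold change of -0.86 against 0.03 over all genes tested, of which 7.87% passed as lower. In 8 of the 10 the groups did not overlap with VSG lower, as was so for 19.8% of all genes tested.

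Gpd2, the mitochondrial glycerol-3-phosphate dehydrogenase that feeds electrons to the respiratory chain, was the most even. It was at 80.3, 92.6 and 94.9 CPM in sham and at 33.3, 34.3 and 33.7 CPM in VSG, with a log2 fold change of -1.40 (SE 0.0974, edgeR adjusted p 0.00192). As for Aqp8, the 3 VSG libraries lay close together and far below sham. Mgll, the lipase that frees glycerol from monoglycerides, was at 406.3 ± 113.4 CPM in sham livers and at 108.9 ± 63.2 CPM after VSG, a log2 fold change of -1.90 (SE 0.461, adjusted p 0.0397). Tkfc, the triokinase that phosphorylates glyceraldehyde and dihydroxyacetone, was at 339.4 ± 41.1 CPM in sham livers and at 140.4 ± 42.9 CPM after VSG (-1.27, SE 0.245, adjusted p 0.0232).

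The log2 fold change of Gpd1l, a cytosolic glycerol-3-phosphate dehydrogenase, was -1.08 (SE 0.203, adjusted p 0.0219). Pnpla2, the lipase that takes the first fatty acid from triglyceride, was lower by a log2 fold change of -0.58 (SE 0.154, adjusted p 0.0494), and did not pass with limma-voom (adjusted p 0.0518) or with limma on log2(FPKM + 1) (0.0506). Calls of all of these but Gpd2 were lost in 3 or more of the 6 fits that left out 1 library. The count of called glycerol genes was 1 in the fits that lacked sham replicate 2, sham replicate 3 and VSG replicate 6 in turn. Over all genes, 494 of 14913, 111 of 14839 and 120 of 14781 passed as lower in these fits. The count was 3 without sham replicate 1 or VSG replicate 4, where 757 of 14814 and 581 of 14707 genes passed as lower.

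Glycerol kinase, the entry step itself, did not pass. Gk was at 221.5, 293.2 and 261.1 CPM in sham and at 129.0, 196.4 and 150.2 CPM in VSG, with no overlap (log2 fold change -0.71, SE 0.191, edgeR adjusted p 0.0527). Gpd1, the cytosolic dehydrogenase of the next step, was at 434.3, 526.3 and 575.1 CPM in sham and at 151.2, 348.3 and 257.0 CPM in VSG (-1.02, SE 0.303, adjusted p 0.0662). These 2 genes passed under 4 of 13 other settings, DESeq2 and total counts among them. Pgp, the phosphatase of glycerol-3-phosphate, was at -0.36 (adjusted p 0.169), the kinase homologue Gk5 at 0.21 (0.612) and the hormone-sensitive lipase Lipe at -0.10 (0.760).

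**Figure D5:**
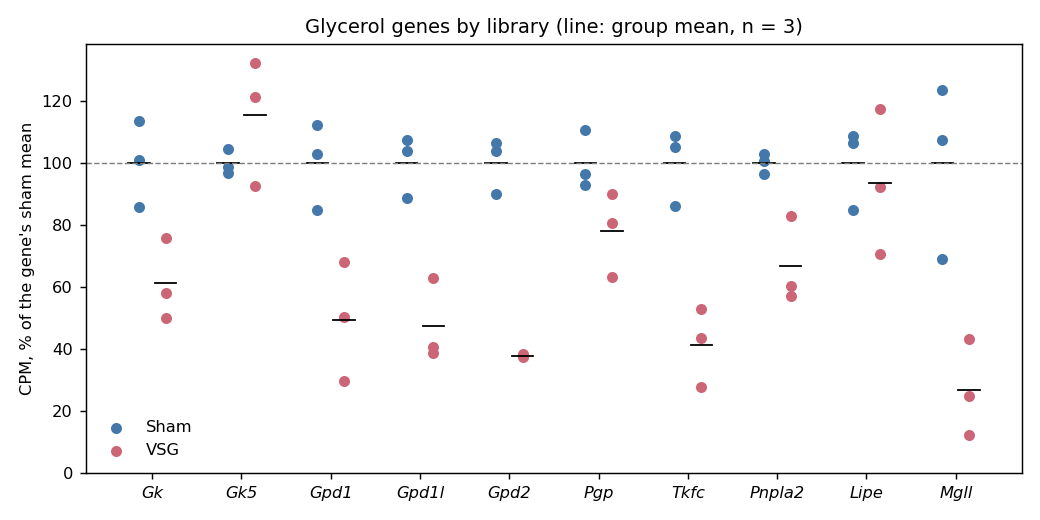
CPM of 10 genes of glycerol use and release (horizontal axis) in percent of each gene's sham mean (vertical axis) for 3 sham (blue) and 3 VSG (red) libraries, with the group mean as a black line. The VSG points of Gpd2 lie together near 37.8%, and in Gk5 and Lipe the groups overlap.

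Bile formation, to which canalicular Aqp8 contributes water, was followed through 12 genes of bile secretion, 10 of them tested. Atp8b1, the canalicular phospholipid flippase, was higher in VSG (log2 fold change 1.17, SE 0.148, edgeR adjusted p 0.00934). It was the 1 gene of the list past the threshold, where 14.7% of all genes tested were. The median log2 fold change of the list was -0.36. In 4 genes the groups did not overlap with VSG lower, as in 19.8% of all genes tested, namely the phospholipid and conjugate exporters Abcb4 (log2 fold change -0.43, adjusted p 0.204) and Abcc2 (-0.61, adjusted p 0.116), the sterol exporter subunit Abcg5 (-0.45, adjusted p 0.0636) and the drug exporter Abcg2 (-0.63, adjusted p 0.129). With edgeR 3 of the 10 had an unadjusted p under 0.05 and a lower level in VSG, against 17.0% of all genes tested, and DESeq2 called 2 as lower, against 12.3%.

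Because Aqp8 passes hydrogen peroxide, 9 peroxide-removing enzymes were listed too. Of these, 3 passed as lower in VSG, where 7.87% of all genes tested did, and none as higher, with a median log2 fold change of -0.52. DESeq2 called 6 as lower (12.3% of all genes). In 8 of the 9 the groups did not overlap with VSG lower, as in 19.8% of all genes tested. Gpx4, which reduces lipid peroxides, was at 48.8, 43.3 and 56.2 CPM in sham and at 25.3, 19.9 and 20.9 CPM in VSG (log2 fold change -1.17, SE 0.141, edgeR adjusted p 0.00809). Prdx3 of mitochondria (-0.60, SE 0.134, adjusted p 0.0325) and Prdx2 of the cytosol (-0.52, SE 0.120, adjusted p 0.0352) were the others. Catalase was at 2785, 3923 and 3360 CPM in sham livers, at 1200, 2689 and 2109 CPM after VSG, and did not pass (-0.75, SE 0.332, adjusted p 0.165), VSG replicate 4 being the lowest, as for Aqp9.

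When 1 library was left out, the count of calls over all genes, 2118 with all 6, lay between 159 (sham replicate 3 absent) and 2732 (VSG replicate 5 absent), and was 210 when VSG replicate 6 was absent. Of the genes named from these lists, Pparg passed in each of the 6 fits, and Gpx4 in each but that without VSG replicate 6 (adjusted p 0.0520). Atp8b1 did not pass in the fit that lacked sham replicate 3 (adjusted p 0.0568) or in that which lacked VSG replicate 6 (0.0524), and its log2 fold change stayed between 1.07 and 1.33. Foxa3, Ppargc1a, Prdx2, Prdx3, Sox9 and Reln each lost their calls in 4 of the 6 fits, with adjusted p-values of up to 0.133, while none changed sign. Their log2 fold changes ran from 0.58 to 0.78 for Foxa3, from -0.92 to -0.65 for Ppargc1a, from -0.61 to -0.44 for Prdx2 and from -0.72 to -0.54 for Prdx3. That of Sox9 was lowest, at 1.23, when VSG replicate 4 was absent, and those of Reln ran from -1.65 to -1.03.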

How the data were processed

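Poly(A) RNA of liver from 3 sham and 3 VSG mice was sequenced as strand-specific libraries. The deposited values were raw counts per gene. The authors aligned reads to mm10 with STAR 2.6.0 and counted them with featureCounts 2.0.3, after FastQC 0.10.1, with versions from the submitters' processing notes, and the study's methods name another release of featureCounts; the authors' own tests used DESeq2. Which annotation release and strand option were set, and how multiply mapped reads were treated, was not given in the sources used here. The deposited summed exon length served for FPKM.

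Of 55385 genes, 55144 were matched to GENCODE M21 symbols. Counts were fitted with edgeR 4.0.16 in R 4.3.3 (filterByExpr, minimum count 10, minimum total 15, TMM factors 0.897 to 1.15, glmQLFit and glmQLFTest with group as the only term, Benjamini-Hochberg over 14454 genes, threshold 0.05). The SE is the log2 fold change divided by the square root of F. The code was tested on simulated data. The members and gene lists were chosen with earlier results of these data known. Named genes were all members and glycerol genes, in each other list the gene with the lowest p called in each direction and genes a result turned on, and the 2 nearest genes of each member tested (log2 CPM with prior count 2, unnamed genes left out). Abcb4, Abcc2, Abcg5, Abcg2, Cat, Krt19, Krt7, Epcam, Spp1, S100a8, S100a9, Clec4f, Cfd, Prdx2, Prdx3 and Ppargc1a were named after their values were seen. Alternatives were DESeq2 1.42.0, limma-voom and limma (3.58.1) on log2(FPKM + 1), RLE factors, total counts, 2 other filters and leaving out each library. FPKM by coding transcript length and the summed Aqp7 ratio were added after seeing the data. Total counts were 22804397 to 24191778, and 3 counts, the floor, were 0.124 to 0.132 CPM of the raw totals. Intervals and floors cover counting error only. With 3 libraries against 3, the edgeR p-values set the group difference against the spread between these animals, moderated across the genes tested. Coding sequences were read from GENCODE M21 and aligned with Biopython 1.88, and promoters came from RefSeq (GRCm38.p6). Results for 1 of the regulators and its motif are not reported here.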

Additional observations from a re-analysis of the deposited data

How the results depend on the processing

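No aquaporin changed sign in any of the 13 alternatives, and the count of 3 called aquaporins ran from 1 to 3 when single libraries were left out, with 1, Aqp8, without VSG replicate 6. With at least 10 counts in every library Aqp7 could not be fitted and 2 were called. The log2 fold change of Aqp8 ran from -2.56 to -2.31 and passed in all 13, that of Aqp4 from -2.81 to -1.36 (10 of 13) and that of Aqp7 from -6.93 to -1.07 (11 of 12). Aqp1 (-0.50 to -0.08), Aqp9 (-0.61 to -0.22) and Aqp11 (-0.85 to -0.23) passed in none.

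Over all genes the count of 2118 called (981 higher, 1137 lower) was 3288 with DESeq2 (1516 higher, 1772 lower), and leaving out 1 library gave 159 (without sham replicate 3) to 2732 (without VSG replicate 5). Total counts without TMM factors gave 486 higher and 1512 lower, with the median of all genes at -0.11 in place of 0.03, and against that shift Aqp8 was at -2.56 and Aqp9 at -0.57. The 5 glycerol genes called were 1 to 7 when 1 library was left out, 7 with DESeq2, total counts or no filter, and 4 with either limma fit. Over all genes, 1293 of 27530 passed as lower with no filter, 1050 of 14454 with limma-voom and 1090 with limma on log2(FPKM + 1). Leaving out 1 library gave from 111 of 14839 as lower (without sham replicate 3) to 1422 of 14830 (without VSG replicate 5). Lipe ran from -0.31 (without VSG replicate 5) to 0.071 (without VSG replicate 4, a change of sign). The cause of these moves was not tested.

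No paired analysis was possible because the replicate numbers are not shared between the groups. With 3 libraries a group, an exact two-sided permutation test cannot go below p = 0.1 and was not used. Depth limits Aqp3 and, in VSG, Aqp7, which were at or under 3 counts. The FPKM of Aqp9 (147 and 107.8 in sham and VSG) and Aqp11 depended on the length used.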
